A study of Mus musculus with 53 samples.

Results

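The 10 imprinted protein-coding growth genes described here are Igf2, Igf2r, Grb10, Cdkn1c, Gnas, Nnat, Mest, Peg3, Dlk1 and Impact. They were chosen by symbol, and all 10 were found among the 14833 genes listed for T1 pre-HSCs, the type 1 precursors of haematopoietic stem cells (HSCs). The cells came from E11 mouse embryos, sorted out of the aorta-gonad-mesonephros, the region in which the earliest HSCs arise. The KO cells are labelled H19 DMR KO and mH19 delta_DMR/+, which names a deleted differentially methylated region (DMR) of the long non-coding RNA H19 over a + allele (12 cells, numbered 1 to 12). Their controls are labelled wildtype and mH19 flDMR/+, so they carry a floxed form of the same region over a + allele (9 of 10 cells, numbered 13 to 22 without 19). What the leading m stands for is not given in the labels. No label names an embryo, litter, sort or Cre driver. With the origin of the cells unknown, a genotype is 1 sample whose cells are not replicates, and the genotypes could not be tested against each other. All levels are RPKM, reads per kilobase of transcript and per unit of mapped reads, so levels of different genes can be compared, and a gene was called detected in a cell at 1 RPKM or more.

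Imprinted genes are read mainly from the chromosome inherited from only the mother or only the father, and differentially methylated control regions keep the parental copies apart. Many of them set the growth of the embryo: the paternally expressed Igf2 encodes a growth factor, while the maternally expressed Igf2r, Grb10 and Cdkn1c restrain growth. The H19 control region binds the insulator protein CTCF on the maternal chromosome, where it keeps shared enhancers away from Igf2 and lets them act on H19, and on the paternal chromosome it is methylated and Igf2 is expressed. Imprinted genes are studied in HSCs for their link to quiescence, of which Cdkn1c is a regulator.

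The start sites of 3 of these genes are shown first, because Igf2 was the most widely detected of the 10, Nnat was high in some cells and near 0 in others, and Dlk1 was the least widely detected. Each stretch holds 250 bases before to 50 bases after a RefSeq start site in GRCm38.p6, written 5′ to 3′ on the strand of the gene, and capitals mark every CG dinucleotide. The Igf2 stretch, chr7:142658755-142659054 on the minus strand, is the richest in CG of 4 start sites listed for that gene, the Nnat stretch is chr2:157559828-157560127 on the plus strand, and the Dlk1 stretch is chr12:109452573-109452872 on the plus strand.
Igf2: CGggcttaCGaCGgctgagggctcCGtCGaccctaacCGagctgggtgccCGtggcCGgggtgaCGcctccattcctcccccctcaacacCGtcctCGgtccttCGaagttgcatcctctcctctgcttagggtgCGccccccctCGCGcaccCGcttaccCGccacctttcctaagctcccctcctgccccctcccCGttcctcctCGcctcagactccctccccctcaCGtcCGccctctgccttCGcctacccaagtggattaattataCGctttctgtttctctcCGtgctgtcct
Nnat: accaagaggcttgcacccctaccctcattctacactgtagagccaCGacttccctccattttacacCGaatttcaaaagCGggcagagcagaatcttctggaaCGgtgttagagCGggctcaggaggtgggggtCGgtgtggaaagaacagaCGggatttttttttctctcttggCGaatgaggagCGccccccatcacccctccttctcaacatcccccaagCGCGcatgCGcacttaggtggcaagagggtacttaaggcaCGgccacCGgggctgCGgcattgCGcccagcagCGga
Dlk1: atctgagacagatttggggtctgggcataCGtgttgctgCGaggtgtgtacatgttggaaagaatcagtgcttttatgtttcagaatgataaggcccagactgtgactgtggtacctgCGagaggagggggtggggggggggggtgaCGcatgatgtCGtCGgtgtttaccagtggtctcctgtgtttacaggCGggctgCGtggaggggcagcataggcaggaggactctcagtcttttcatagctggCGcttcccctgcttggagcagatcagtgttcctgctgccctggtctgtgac

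The Igf2 stretch held 24 CG dinucleotides, the Nnat stretch 17 and the Dlk1 stretch 9. Of all 32851 start-site stretches of this length in the table, 20.0% held at least as many as that of Igf2, 31.4% as many as that of Nnat and 45.8% as many as that of Dlk1. The Igf2 stretch was picked as the richest of its gene. The other Igf2 stretches held 14, 7 and 2, and 36.3%, 52.1% and 85.9% of all stretches held at least as many. Of the 10 genes, 8 had stretches in the table, 17 in all, with a median of 17 CG dinucleotides against 7 over all stretches. The motif TATAAA, searched on both strands, was found in 3 of the 17 stretches, all of Gnas, and in 13.6% of all stretches. The Gnas stretches chr2:174327499-174327798 and chr2:174327518-174327817 overlap and share the same motif site. The Mest stretches chr6:30737800-30738099 and chr6:30737803-30738102 overlap as well, so the counts and the median take some sequence more than once. These are descriptions of the reference sequence, and methylation was not analysed here.

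Not every cell carried the transcripts of its label. Of 7 pre-HSC markers listed, KO cells 1, 3 and 7 had 1 each at 1 RPKM or more and wildtype cell 13 had 0, where the medians were 2.5 in KO and 6 in wildtype cells. Of 8 endothelial markers, which T1 pre-HSCs also carry, KO cells had a median of 3 with a range of 0 to 8, and wildtype cells a median of 6 with a range of 2 to 8. The 10 mesenchymal markers, genes such as Postn and Twist1, summed to between 0.0036 and 1077 RPKM in KO cells and between 0.0010 and 254 RPKM in wildtype cells. At least 1 cell reached 1 RPKM for 8 of the 10 in KO and for 6 of the 10 in wildtype cells, while Pdgfra reached it in none. More mesenchymal than endothelial markers were detected in KO cells 1, 3 and 11 and in wildtype cell 14, with 3 against 1, 1 against 0, 7 against 1 and 5 against 2. Results are therefore also given without these 4 cells, a rule set after seeing the data. Ptprc, which encodes CD45 and is not part of the T1 phenotype, was detected in 1 KO and 1 wildtype cell. Of 5 mature blood markers listed, Ptprc included, at most 3 were detected in a KO cell and 2 in a wildtype cell. Lyz2 was the most widely detected of them, in 6 of 12 KO and 6 of 9 wildtype cells, at up to 700 and 1951 RPKM. Cd68 and Mpo were each detected in 2 KO cells and no wildtype cell, and Fcgr1 in 1 wildtype cell and no KO cell. Erythroid, neural and hepatic markers were sparse, with at most 2, 1 and 1 of them detected in a KO cell and 1, 1 and 0 in a wildtype cell. Genes detected per cell ranged from 1517 to 8408 in KO cells and from 2067 to 5716 in wildtype cells, with KO cells 1, 9 and 12 under 2000. Wildtype cell 19 was left out: its Spearman correlation with the average profile of the rest was 0.25, against 0.28 to 0.82 for the 21 cells used, and Actb and Rplp0, detected in every cell used, were listed at 0 there.

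**Figure D1:**
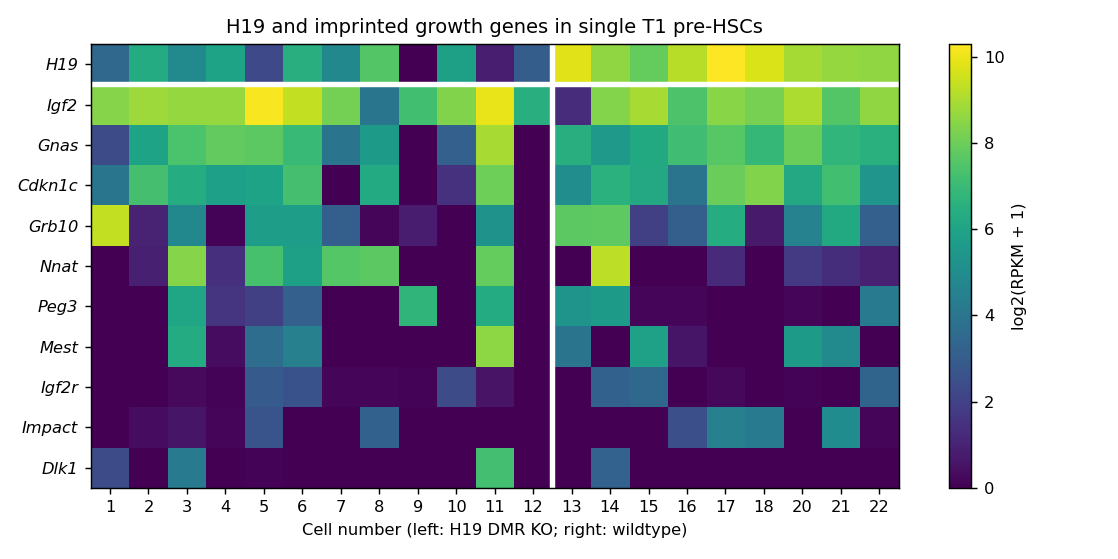
Level of H19 (top row) and of the 10 growth genes in each cell, as log2(RPKM + 1), with KO cells 1 to 12 left of the white line and wildtype cells right of it. Igf2 was above 0 in all 21 cells, and Dlk1 reached 1 RPKM in KO cells 1, 3 and 11 and wildtype cell 14.

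Igf2 was the most abundant growth gene in both genotypes, and its levels overlapped. Igf2 (ENSMUSG00000048583.12) encodes insulin-like growth factor 2 and lies on chromosome 7 from 142650768 to 142666816, 72622 bases from H19. KO cells ranged from 15.0 to 1164 RPKM with a median of 373 RPKM, and wildtype cells from 1.49 to 516 RPKM with a median of 335 RPKM. All 12 KO cells and all 9 wildtype cells had it detected, shares whose exact 95% intervals run from 73.5 to 100% in KO and from 66.4 to 100% in wildtype cells. These Clopper-Pearson intervals cover counting error only. KO cells 5 and 11, at 1164 and 1008 RPKM, lay above every wildtype cell, as did KO cell 6 at 662 RPKM. Ranked by mean RPKM, Igf2 stood at percentile 97.3 of all listed genes in KO and 96.3 in wildtype cells.

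On the log2(RPKM + 1) scale Igf2 averaged 8.19 ± 1.68 in the 12 KO cells and 7.54 ± 2.40 in the 9 wildtype cells (SD over cells). The difference of 0.64 was smaller than either SD. It rested on wildtype cell 13, the lowest cell, without which it was -0.14. Over the 5 KO and 7 wildtype cells with at least 4 endothelial markers it was -0.11. H19 itself did not overlap, with KO cells at 0 to 186 RPKM and wildtype cells at 231 to 1261 RPKM.

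Igf2r (ENSMUSG00000023830.9), the receptor that binds and degrades IGF2, was far lower than Igf2 in both genotypes. It reached 1 RPKM in 3 of 12 KO cells, at 6.63, 5.05 and 4.13 RPKM in cells 5, 6 and 10, and in 3 of 9 wildtype cells, at 8.07, 9.82 and 8.99 RPKM in cells 14, 15 and 22. All other cells of both genotypes were below 0.5 RPKM, and the difference was -0.38. Igf2r lies on chromosome 17 from 12682406 to 12769706 and is overlapped on the other strand by Airn, the antisense RNA that silences it on the paternal chromosome. Airn peaked at 693 RPKM in KO cell 9 and at 141 RPKM in wildtype cell 14, and whether counting used strand is not given in the sources used here.

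Grb10 (ENSMUSG00000020176.13), an adaptor that binds and damps the insulin and IGF receptors, was detected in a smaller share of the KO cells, with intervals that overlap. It reached 1 RPKM in 6 of 12 KO cells (interval 21.1 to 78.9%) and in 8 of 9 wildtype cells (interval 51.8 to 99.7%). KO cells ranged from 0 to 650 RPKM with a median of 4.40 RPKM, and wildtype cells from 0.673 to 211 RPKM with a median of 22.6 RPKM. The groups overlapped, and the highest value of all was that of KO cell 1, which had the fewest detected genes and 606 RPKM of mesenchymal markers. The difference of means was -1.61. The ratio of mean RPKM, in which KO cell 1 carries most weight, was 0.016 on the log2 scale. Grb10 lies on chromosome 11 from 11930499 to 12037428.

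Cdkn1c and Gnas were detected in all wildtype cells and listed at 0 in a few KO cells. Cdkn1c (ENSMUSG00000037664.8) encodes p57Kip2, an inhibitor of cyclin-dependent kinases, and lies on chromosome 7 from 143458339 to 143461059, 880193 bases from H19 and under another control region. It ranged from 0 to 257 RPKM in KO cells, with a median of 58.9 RPKM, and from 14.6 to 325 RPKM in wildtype cells, with a median of 73.9 RPKM. KO cells 7, 9 and 12 were listed at 0 and KO cell 10 was at 1.77 RPKM, below every wildtype cell, and the other 8 KO cells lay within the wildtype range. The share detected was 9 of 12 KO cells (interval 42.8 to 94.5%) and 9 of 9 wildtype cells (interval 66.4 to 100%).

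Gnas (ENSMUSG00000027523.15) encodes the stimulatory G protein alpha subunit and further products from imprinted promoters that a value per gene does not separate. It lies on chromosome 2 from 174284320 to 174346744. It ranged from 0 to 500.3 RPKM in KO cells, with a median of 55.6 RPKM, and from 45.3 to 254 RPKM in wildtype cells, with a median of 108 RPKM. KO cells 9 and 12 were listed at 0, KO cells 1, 7 and 10 were at 4.22, 14.7 and 8.01 RPKM, and KO cell 11 stood above every wildtype cell. The share detected was 10 of 12 KO cells (interval 51.6 to 97.9%) and 9 of 9 wildtype cells.

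The differences of means were -1.95 for Cdkn1c and -1.80 for Gnas. Both were nearer 0 when the cells with few detected genes were set aside. Without the 3 KO cells under 2000 genes the values were -0.94 for Cdkn1c and -0.40 for Gnas, and over cells with at least 4 endothelial markers they were 0.062 and -0.21. KO cells 9 and 12, listed at 0 for both genes, had 1891 and 1796 detected genes, and the part that this plays was not tested.

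With the values as deposited Nnat had the largest difference in size among the 10 genes, and it was high or nearly absent in single cells. Nnat (ENSMUSG00000067786.12) encodes neuronatin, a small membrane protein that regulates calcium handling, and lies on chromosome 2 from 157560078 to 157562525. In KO cells 3, 5, 6, 7, 8 and 11 it was at 344, 157, 57.0, 191, 208 and 231 RPKM, and the other 6 KO cells were at 1.64 RPKM or less. In wildtype cell 14 it was at 614 RPKM, the highest value of all cells, and the other 8 wildtype cells were at 2.41 RPKM or less. The groups thus overlapped, with no cell of either genotype between 2.41 and 57.0 RPKM. Nnat is also a neuronal gene, and the neural marker Stmn2 was above 1 RPKM in 2 of the 6 high KO cells, at 1094 RPKM in cell 7 and 113 RPKM in cell 5, and was at 0.0184 RPKM or less in the other 4 and at 0 in wildtype cell 14. It was also at 1.84, 121 and 81.6 RPKM in wildtype cells 13, 15 and 20, where Nnat was at 0, 0 and 2.41 RPKM, and its part in the Nnat values was not tested.

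At 5 RPKM or more, Nnat was found in 6 of 12 KO cells, a share with an interval of 21.1 to 78.9%, and in 1 of 9 wildtype cells, a share with an interval of 0.281 to 48.2%. The intervals overlap. At 1 RPKM or more the counts were 7 of 12 KO and 4 of 9 wildtype cells. The difference of means was 2.30 and stayed above 0 in all 31 alternatives tried, from 0.53 with the ratio of mean RPKM to 3.88 over cells with at least 4 endothelial markers. Without the 4 cells with more mesenchymal than endothelial markers it was 2.75, and Nnat then reached 1 RPKM in 5 of the 9 KO and 3 of the 8 wildtype cells. Nnat lies inside Blcap, on the opposite strand. Blcap was highest in KO cell 9, at 55.5 RPKM, where Nnat was listed at 0, and reached at most 0.429 RPKM in wildtype cells.

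**Figure D2:**
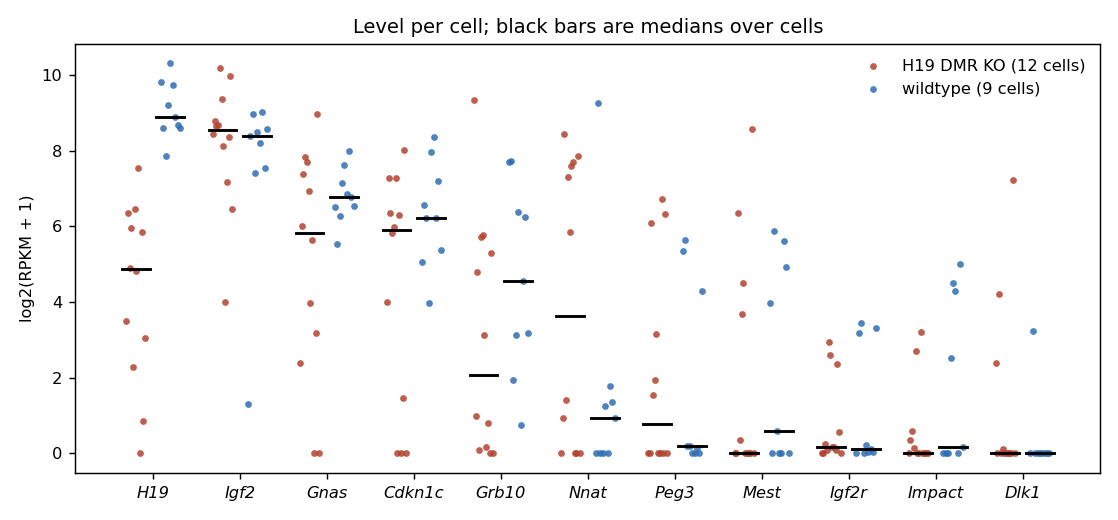
Level of H19 and each growth gene per cell as log2(RPKM + 1), with KO cells left of wildtype cells for each gene and black bars at the median over cells. H19 does not overlap between the genotypes, all 10 growth genes do, and Nnat splits into a high set and a set near 0.

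Mest, Peg3 and Dlk1, paternally expressed genes of embryonic growth, were each detected in a minority of cells or in an even split. Mest (ENSMUSG00000051855.11, chromosome 6 from 30733506 to 30748466) encodes a member of the alpha/beta hydrolase fold family. It reached 1 RPKM in 4 of 12 KO cells, at 81.0, 11.9, 21.7 and 377 RPKM in cells 3, 5, 6 and 11, and in 4 of 9 wildtype cells, at 14.6, 58.1, 48.0 and 29.4 RPKM in cells 13, 15, 20 and 21. All other cells of both genotypes were at 0.500 RPKM or less. The difference was -0.38 and had no steady sign, at 1.29 with the ratio of mean RPKM, 0.86 with an equal median per cell, 0.28 without cells under 2000 genes, 0.069 without wildtype cell 15, 0.035 without wildtype cell 20 and -1.67 without the 4 cells with more mesenchymal than endothelial markers. The end of Mest is overlapped on the other strand by Copg2, whose highest level was 662 RPKM among KO cells and 333 RPKM among wildtype cells.

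Peg3 (ENSMUSG00000002265.11, chromosome 7 from 6703892 to 6730462) encodes a zinc finger protein. It reached 1 RPKM in 6 of 12 KO cells, highest at 105 RPKM in cell 9, 78.8 RPKM in cell 11 and 66.5 RPKM in cell 3, and in 3 of 9 wildtype cells, at 39.6, 48.5 and 18.7 RPKM in cells 13, 14 and 22. The difference was 0.39, and without KO cell 9 it was -0.023.

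Dlk1 (ENSMUSG00000040856.13, chromosome 12 from 109452485 to 109463336) encodes a membrane protein related to Notch ligands and is abundant in fetal mesenchyme. It was at 4.20, 17.6 and 149 RPKM in KO cells 1, 3 and 11 and at 8.44 RPKM in wildtype cell 14, and at 0.0854 RPKM or less in every other cell. These are the 4 cells with more mesenchymal than endothelial markers, a rule set after seeing the data, so values of Dlk1 without them say nothing further. The level of the markers did not follow the same order. They summed to 10.8 RPKM in KO cell 3, while KO cell 9 and wildtype cells 13 and 20 were at 322, 156 and 119 RPKM with Dlk1 at 0. The difference of means for Dlk1 was 0.80. Non-coding RNAs of the same imprinted domain were seen in some of these cells: Meg3 was at 222 RPKM in KO cell 11, but also at 37.7 and 22.4 RPKM in KO cells 6 and 5, where Dlk1 was at 0 and 0.0854 RPKM, and Rian was at 87.5 RPKM in KO cell 3 and at 31.6 RPKM in wildtype cell 14.

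Impact (ENSMUSG00000024423.5, chromosome 18) encodes an inhibitor of the translation kinase GCN2. It reached 1 RPKM in 2 of 12 KO cells, at 5.48 and 8.17 RPKM in cells 5 and 8, and in 4 of 9 wildtype cells, at 4.73, 21.5, 18.5 and 31.3 RPKM in cells 16, 17, 18 and 21. Every KO cell thus lay below the 3 highest wildtype cells, while most cells of both groups were below 1 RPKM. The difference was -1.25, and it was -0.92, -0.94 or -0.85 without wildtype cell 17, 18 or 21.

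Set against all genes, the group had no common direction. Of the 10 growth genes, 4 were lower by 1 or more on the log2(RPKM + 1) scale in KO cells (Cdkn1c, Gnas, Grb10 and Impact) and 1 was higher (Nnat), where 1 is a limit of size, not the outcome of a test. Of the 2767 genes detected in at least 50% of the 21 cells, 28.0% were lower by that much and 8.38% were higher, and of all 14833 listed genes 10.6% were lower and 5.85% higher. Of the 10 growth genes, 5 are among the 2767 (Igf2, Cdkn1c, Nnat, Gnas and Grb10), and of these 3 were lower and 1 was higher. Their median was -1.61, against -0.38 over the 2767. Over all 10 growth genes the median was -0.38, against 0 over all listed genes. Relative to the median of the 2767 genes, Nnat stood at 2.68, Dlk1 at 1.19, Igf2 at 1.02 and Peg3 at 0.78, Mest at 0.0080 and Igf2r at 0.0024, and Impact at -0.87, Grb10 at -1.23, Gnas at -1.42 and Cdkn1c at -1.57. Without the 4 cells with more mesenchymal than endothelial markers, the differences were 0.47 for Igf2, 0.039 for Igf2r, -2.38 for Grb10, -2.50 for Cdkn1c, -2.38 for Gnas, 0.22 for Peg3 and -1.35 for Impact, so that the 4 lower genes stayed past 1 in size. Mest joined them there, at the value given above, and 21.5% of the 2767 genes were lower and 15.4% higher. A shift of every cell to an equal median moved the median of the 2767 genes by 1.24, after which 0 growth genes were lower by 1 or more and 4 were higher, namely Igf2, Nnat, Peg3 and Dlk1, where 6.00% of the 2767 genes were lower and 43.4% higher. Every KO cell lay below every wildtype cell in 0.0723% of the 2767 genes and above in 0.00%, and in none of the 10 growth genes.

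**Figure D3:**
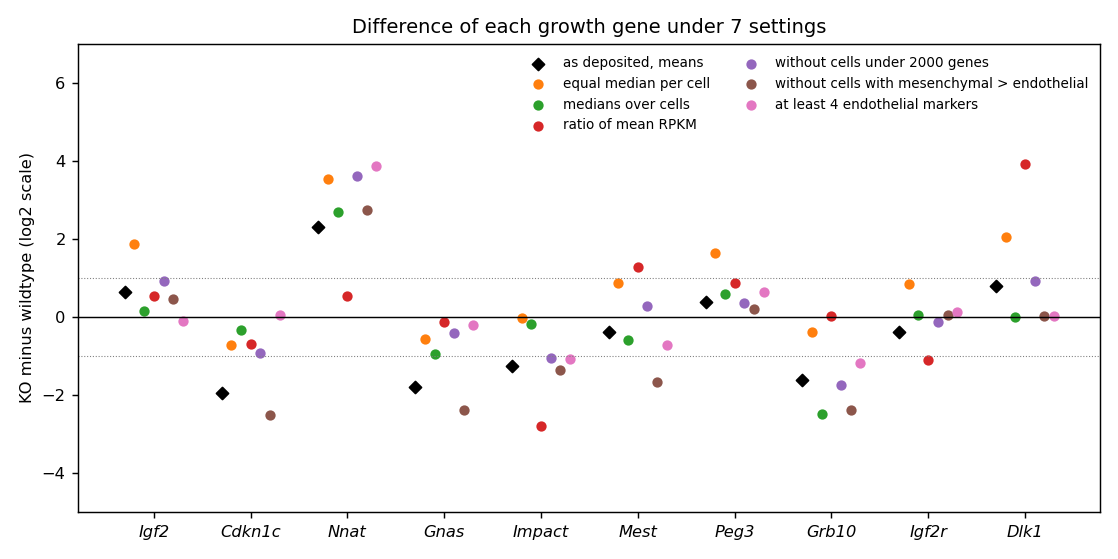
Difference of each growth gene, KO minus wildtype, under 7 settings, with black diamonds for the values as deposited and dotted lines at -1 and 1. Nnat lies above 0 in all 7 settings, and Dlk1 runs from 0 with medians over cells to 3.92 with the ratio of mean RPKM.

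Within a genotype, the growth genes did not follow H19 as a group. Over the 12 KO cells their Spearman correlations with H19 ran from -0.45 for Dlk1 to 0.39 for Impact, with a median of -0.0017. Over the 2766 widely detected genes, the 2767 without H19, the median was 0.21. Over the 9 wildtype cells the growth genes ran from -0.67 for Igf2r to 0.55 for Gnas, with a median of -0.23 against -0.025. The 2766 genes hold only 5 of the 10 growth genes, so these medians cover unlike sets. Those 5 are Igf2, Cdkn1c, Nnat, Gnas and Grb10. They were at -0.077, 0.35, 0.16, 0.16 and -0.15 in KO cells, and at -0.48, 0.22, -0.19, 0.55 and 0.22 in wildtype cells. These are descriptions over few cells, which share the total that RPKM divides by and may share an embryo. Correlations of 0.5 or more were found for 15.2% of genes in KO and 5.68% in wildtype cells, and of -0.5 or less for 0.940% and 11.9%.

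For Igf2, the neighbour of H19, Spearman's rho was -0.077 and Pearson's r of log2 values -0.28 in KO cells, and -0.48 and -0.41 in wildtype cells. Without the 2 cells farthest from the median H19 level, KO cells 9 and 11 and wildtype cells 15 and 17, Pearson's r was -0.38 in KO and -0.64 in wildtype cells, and rho was -0.042 and -0.64. In wildtype cells the 3 with Igf2r above 1 RPKM, 14, 15 and 22, were the 3 with the lowest H19, at 389, 231 and 384 RPKM. Pearson's r of Igf2r was -0.71 there and -0.63 without the 2 farthest cells, against 0.066 and -0.13 in KO cells. For Gnas in wildtype cells r was 0.46 and fell to 0.17 without wildtype cells 15 and 17. These have the lowest and the highest H19 of the wildtype cells, so leaving them out also narrows the H19 range. The rho of Gnas was 0.55 there, 0.25 without both cells and 0.40 to 0.76 with each cell left out in turn. Cdkn1c had a rho of 0.35 in KO cells, 0.19 without KO cell 9, 0.67 without KO cell 11 and 0.73 without KO cells 1, 3 and 11, those with more mesenchymal than endothelial markers. In KO cells Igf2 and Gnas followed the number of detected genes more closely than H19, with rho of 0.68 and 0.76. Over all widely detected genes the median rho with the number of detected genes was 0.45 in KO cells. With that number held constant as a rank, the rho of Igf2 with H19 was -0.42 in KO and -0.47 in wildtype cells. That of Gnas was -0.12 in KO and 0.66 in wildtype cells.

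**Figure D4:**
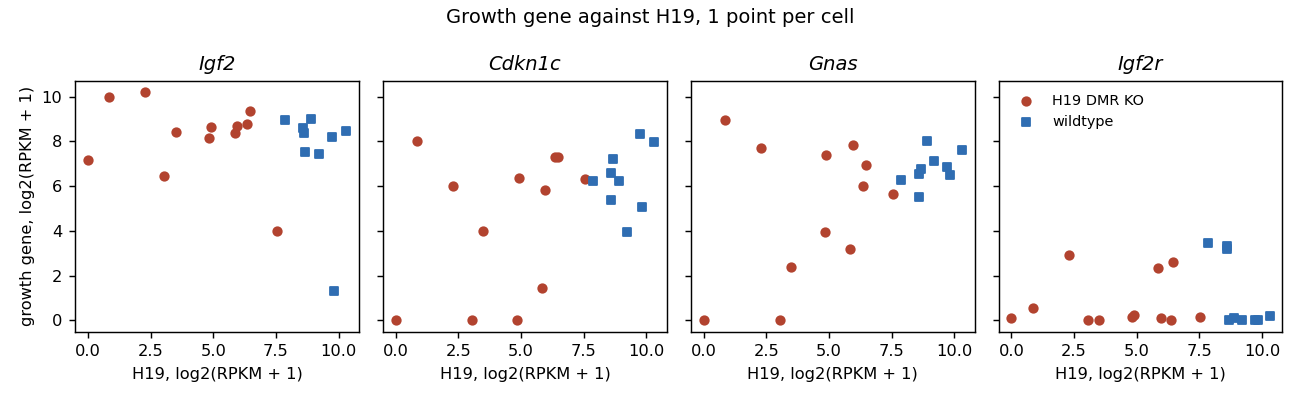
Igf2, Cdkn1c, Gnas and Igf2r against H19, both as log2(RPKM + 1), with 1 point per cell, circles for KO and squares for wildtype cells. The genotypes are apart on the H19 axis and overlap on the growth gene axis, and the 3 wildtype cells with Igf2r above 1 RPKM are those lowest in H19.

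The growth genes followed each other more in KO than in wildtype cells, a difference that was not tested. Of the 45 pairs, 43 had a rho above 0 in KO and 22 in wildtype cells, and the median rho was 0.44 in KO and 0.00 in wildtype cells. With the number of detected genes held constant as a rank, the medians were 0.38 and 0.031, and 16 KO pairs and 5 wildtype pairs reached 0.5. Over all pairs of the 2767 genes those medians were 0.0093 in KO and 0.031 in wildtype cells, and 8.34% and 12.3% of pairs reached 0.5. Only 10 of the 45 pairs have both genes among the 2767, so these medians and shares cover unlike sets. Those 10 pairs, of 5 growth genes, had a median rho of 0.59 in KO and 0.18 in wildtype cells. All pairs of the 2767 genes had 0.18 and 0.074. With the number of detected genes held constant as a rank, the 10 pairs had medians of 0.50 in KO and 0.11 in wildtype cells. The highest KO pair was Gnas with Mest at 0.83, followed by Igf2 with Gnas at 0.77 and Cdkn1c with Gnas at 0.75. Both genes of these pairs were detected in 4, 10 and 9 of the 12 KO cells. Without the 4 cells with more mesenchymal than endothelial markers the median was 0.45 in KO and 0.072 in wildtype cells. The wildtype median then leaves out every pair with Dlk1, which was listed at 0 in all 8 wildtype cells left. In the 9 KO cells left Dlk1 reached at most 0.0854 RPKM. In wildtype cells Igf2 with Igf2r had the highest rho, 0.82, with both detected in only 3 of the 9 cells. Impact with Peg3 had the lowest, -0.73, with no cell in which both were detected.

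Cells thus differed in how much of the group they carried. KO cells had 1 to 9 of the 10 genes at 1 RPKM or more, with a median of 5, and wildtype cells 4 to 8, with a median of 6. The summed level ran from 87.5 to 2641 RPKM in KO cells, with a median of 680 RPKM, and from 336 to 1363 RPKM in wildtype cells, with a median of 719 RPKM. The lowest was KO cell 12, where Igf2 was the only growth gene above 0, and the highest was KO cell 11, which also had the highest mesenchymal marker sum, 1077 RPKM. The sum was 1363 RPKM in wildtype cell 14, the highest of its genotype in both sums. Igf2 made up a median of 58.2% of the summed level in KO and 39.3% in wildtype cells.

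**Figure D5:**
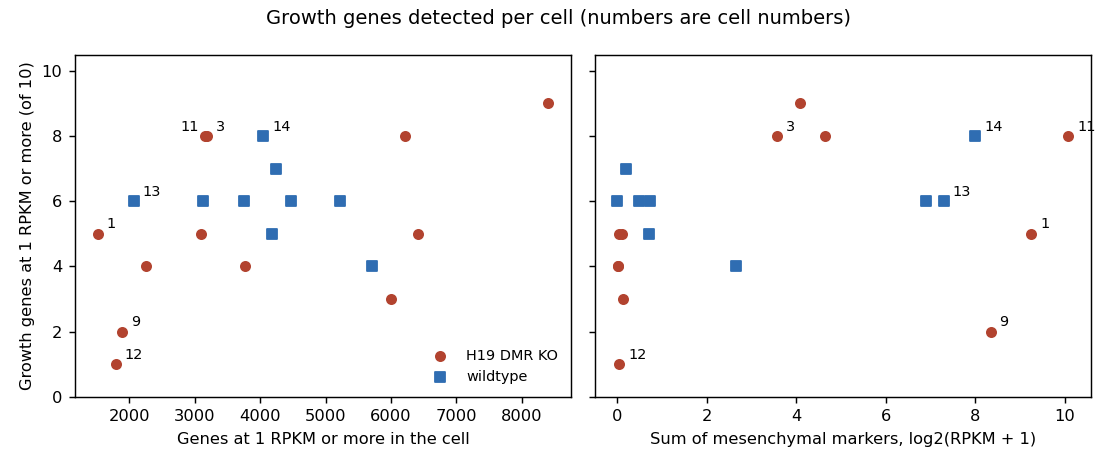
Number of the 10 growth genes at 1 RPKM or more in each cell, against the number of all detected genes (left) and against the summed mesenchymal markers as log2(RPKM + 1) (right), with circles for KO and squares for wildtype cells. KO cells 9 and 12, with 2 and 1 growth genes, are among the cells with the fewest detected genes, and growth genes and marker sums have no common order: KO cells 11, 1 and 9 have 8, 5 and 2 growth genes at the 3 highest sums, and KO cells 5, 6 and 3 have 9, 8 and 8 at 16.0, 24.0 and 10.8 RPKM.

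The genes most alike across the 21 cells, after the mean of its genotype was taken off each value, were Zwint and Maf1 for Cdkn1c (rho 0.88 and 0.78), Acat3 and Esd for Gnas (0.85 and 0.84), Myef2 and Arl2 for Nnat (0.83 and 0.82), Atp5b and Ppm1g for Igf2 (0.76 and 0.76) and Tmsb10 and Id3 for Grb10 (0.65 and 0.64). They are the extremes of 2439 genes ranked, where the median ran from -0.043 for Grb10 to 0.28 for Gnas. Among the growth genes, Gnas was the most like Cdkn1c, at 0.78.

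Beside the counts that follow, 10.6% of all listed genes were lower by 1 or more and 5.85% higher. Of the 2767 widely detected genes, 28.0% were lower and 8.38% higher. Of 50 other imprinted coding genes, 33 were listed, of which 5 were lower by 1 or more and 3 higher. Of the 6 detected in at least 50% of the cells, from which the genes named here were taken, 1 was lower and 1 higher. Cd81, a tetraspanin, was at a difference of -1.39 and Commd1, a copper-handling and sorting protein, at 1.15. Copg2, a coat protein of Golgi vesicles, was at -0.96, and H13, a signal peptide peptidase, at -0.73. Of 25 IGF axis genes, 21 were listed, with 1 lower and 1 higher, and 3 were detected widely enough, none of them past 1 in size: Igfbp4, a binding protein of IGFs, at -0.64, and the Igf2 mRNA-binding proteins Igf2bp3 at -0.38 and Igf2bp1 at -0.011. Igf1r, the signalling receptor of IGF2, was too rare for that count, with 4 of 12 KO cells and 2 of 9 wildtype cells above 1 RPKM, and is named for its role after its values were seen. Of 12 imprint control factors, 10 were listed, with 1 lower and 1 higher, and 3 were detected widely enough: the de novo DNA methyltransferase Dnmt3a at -2.42, Trim28, a corepressor that guards imprints, at -0.60, and Ctcf at 0.50. Of the imprinted lncRNAs, Airn was at -0.18, Kcnq1ot1 at -0.69, Rian at 0.39 and Meg3 at 1.66. Meg3 reached 1 RPKM in 4 of 12 KO cells, and the 0 of 9 found among wildtype cells allows a share of up to 33.3% by a floor of 3 counts, or 33.6% by the exact interval.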

How the data were processed

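RNA was measured in single T1 pre-HSCs by a template-switching method, per the labels. The authors deposited RPKM values, 1 column per cell, for which the submitters' processing notes name Cufflinks 2.1.0 and the genome build mm10. Not given in the sources used here: aligner, annotation, strand setting and treatment of reads with several map positions. Depth is unknown, so no counting error per gene can be given. RPKM divides by the total of each cell, so a few high genes lower the rest.

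Columns were matched to samples by cell number. The main value is the difference of mean log2(RPKM + 1), taken as KO minus wildtype. The added 1 RPKM understates changes of low genes. The background genes reached 1 RPKM in at least 50% of the 21 cells, whatever their genotype. Named genes are the members, H19, up to 4 of each further list by size of difference, and the 2 genes most alike to each widely detected member. The difference and correlation steps were tested on simulated data. Members and lists were chosen with earlier results of these data known. Positions, start sites and overlaps come from RefSeq on GRCm38.p6. The adult HSC and methylation libraries were not analysed here. Software was Python 3.11.15, numpy 2.4.6, pandas 2.3.3, scipy 1.17.1 and matplotlib 3.10.9.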

Additional observations from a re-analysis of the deposited data

Results flagged for a closer look

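Among the 9 wildtype cells, 3 values stood apart from the others of their gene by a gap, relative to the range on the log2(RPKM + 1) scale, above the 95% critical value of Dixon's test for 9 values. H19 and the 10 growth genes were checked, and chance flags about 1 in 20 groups where values follow a normal curve and are not tied. Igf2 was at 1.49 RPKM in wildtype cell 13, where the gap was 0.79 of the range. Nnat was at 614 RPKM in wildtype cell 14, with a gap of 0.81 of the range. It was listed at 0 in 4 of the 9 wildtype cells, so the rate of 1 in 20 does not hold for Nnat. Dlk1 was at 8.44 RPKM in wildtype cell 14 and listed at 0 in the other 8 wildtype cells. With 8 values tied at 0 any value above 0 would stand apart, so this gap carries no weight. Wildtype cell 13 had 0 of 7 pre-HSC markers at 1 RPKM or more, and wildtype cell 14 had 5 of 10 mesenchymal markers, and their part in these values was not tested.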

How the results depend on the processing

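No paired analysis was possible because KO and wildtype cells share no cell number. The direction of H19, Nnat, Gnas and Impact was the same in all 31 alternatives. Over them H19 ran from -5.20 to -3.32, Gnas from -2.39 to -0.13 and Impact from -2.80 to -0.014. Grb10 turned to 0.016 with the ratio of mean RPKM and Cdkn1c to 0.062 over cells with at least 4 endothelial markers. That last setting and the one without cells with more mesenchymal than endothelial markers were chosen after seeing the data. The number of growth genes lower by 1 or more, 4 with the values as deposited, was 2 with a pseudocount of 10, with the ratio of mean RPKM, without cells under 2000 genes and over cells with at least 4 endothelial markers, 1 with medians over cells and 0 with an equal median per cell. The number higher was 2 with a pseudocount of 0.1 and with the ratio of mean RPKM, and 4 with an equal median. The share of the 2767 genes that was lower moved too, to 12.6%, 12.9%, 14.1% and 8.35% in the 4 settings with 2 lower growth genes, 33.6% with medians and 6.00% with an equal median, where 43.4% were higher. The share of the 2767 genes that was higher was 11.8% with a pseudocount of 0.1 and 12.4% with the ratio of mean RPKM. Leaving out each cell in turn gave 3 to 4 lower and 1 to 2 higher, the second higher gene being Igf2 without KO cell 8, at 1.02, or Dlk1 without wildtype cell 14, at 1.16. In those runs 22.4% to 37.3% of the 2767 genes were lower and 6.18% to 11.7% higher. With wildtype cell 19 the Igf2 difference was 0.90. The cause of these changes was not tested. Depth is unknown and limits every value near 0.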
